A study of Mus musculus with 8 samples.

Results

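Costimulatory and coinhibitory ligands are the surface proteins by which a dendritic cell tells a T cell whether to respond to the antigen it displays. The set was fixed by name as 7 genes, Cd80, Cd86, Cd40, Cd274, Pdcd1lg2, Tnfsf4 and Icosl, and the expression table of 11756 genes held 6 of them. Icosl, the ligand of ICOS, is not among them and was not analysed here. Of the 6, 5 passed the filter on low values that 10091 genes passed and were tested, and Tnfsf4 did not pass it.

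CD80 and CD86 are B7 proteins that bind CD28 on T cells and sustain their activation, and they also bind the inhibitory receptor CTLA-4. PD-L1, the product of Cd274, and PD-L2, the product of Pdcd1lg2, bind PD-1 and restrain T cells. CD40 is the receptor through which helper T cells licence dendritic cells, and OX40 ligand, the product of Tnfsf4, prolongs T cell responses through OX40. All of them are controlled after transcription as well, so the messages measured here are not surface levels.

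The tested cells were CD11c positive bone marrow cells of C57BL/6 mice that were given acLDL, that is low density lipoprotein modified by acetylation so that scavenger receptors take it up, and 4 libraries were made from them. The control cells were CD11c positive cells of the same strain and marrow source without acLDL, also in 4 libraries. Both groups were sorted by flow cytometry, and the exposure began on culture day 6 and lasted 24 h. Nothing in the labels ties a library to a mouse or culture of its own. A p-value here therefore sets a difference against the spread of 4 libraries, and that spread may be technical.

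The values are normalized signals in the authors' scale, and library totals ran from 3917426 to 4385051. Dividing each total by the step estimated for 1 read in that library gave an estimated 3230914 to 5457545 reads. These depths are rough, because only 11.1% to 13.6% of the low values used to estimate the step fell on whole steps. The libraries differed in how much signal short messages held. A short-transcript index, the mean log2 deviation of 489 tested genes with transcripts under 1000 nt minus that of longer ones, was 0.89, -1.07, -1.91 and -0.17 in acLDL libraries 1 to 4 and 0.10, 0.75, 0.84 and 0.58 in control libraries 1 to 4. Hence acLDL library 1 lay above every control on this index, and the other acLDL libraries lay below every control. Itgax, which encodes CD11c, was listed at 189, 10.004, 0 and 42.7 with acLDL and at 81.5, 182, 195 and 172 in controls, so the sorting marker itself was lowest in the acLDL libraries with a low index.

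The members lie at 5 places in the genome (GRCm38, GENCODE). Cd80 (chromosome 16, 38455561 to 38496335, plus strand) and Cd86 (chromosome 16, 36603869 to 36666081, minus strand) are 1789.5 kb apart. Cd274 (chromosome 19, 29367455 to 29388095, plus strand) ends 22.8 kb before Pdcd1lg2 (chromosome 19, 29410919 to 29471161, plus strand). Cd40 is on chromosome 2 (165055627 to 165072948, plus strand) and Tnfsf4 on chromosome 1 (161395409 to 161418410, plus strand). Their longest coding transcripts measure 3622 nt for Cd274, 3173 nt for Cd80, 2986 nt for Cd40, 2539 nt for Cd86, 1842 nt for Tnfsf4 and 1729 nt for Pdcd1lg2.

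RefSeq promoter windows of 300 bases (250 before and 50 after the start site, GRCm38.p6, 5′ to 3′ on the plus strand, which is the strand of all 3 genes) are shown for the PD-1 ligand pair and for Cd80, one of the CD28 ligands. The pair was taken because the estimated fold changes of these neighbours differed in sign. Neither passed the threshold, and both signs turned with the short-transcript index as a covariate. In the Cd274 window (chr19:29367188-29367487) capitals mark the 49 bases from the first base of its divergent neighbour Plgrkt to the RefSeq start of Cd274. In the windows of Pdcd1lg2 (chr19:29410669-29410968) and Cd80 (chr16:38458683-38458982) capitals mark motif matches. The RefSeq start site behind the Cd80 window lies inside the GENCODE gene, downstream of the gene start given above, so positions in that window count from the RefSeq start.
Cd274: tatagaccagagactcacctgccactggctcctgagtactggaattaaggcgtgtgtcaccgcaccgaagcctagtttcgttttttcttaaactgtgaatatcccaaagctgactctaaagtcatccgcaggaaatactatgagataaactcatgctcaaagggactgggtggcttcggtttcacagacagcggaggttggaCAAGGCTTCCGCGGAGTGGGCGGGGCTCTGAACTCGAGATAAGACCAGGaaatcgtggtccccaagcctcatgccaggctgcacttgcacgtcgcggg
Pdcd1lg2: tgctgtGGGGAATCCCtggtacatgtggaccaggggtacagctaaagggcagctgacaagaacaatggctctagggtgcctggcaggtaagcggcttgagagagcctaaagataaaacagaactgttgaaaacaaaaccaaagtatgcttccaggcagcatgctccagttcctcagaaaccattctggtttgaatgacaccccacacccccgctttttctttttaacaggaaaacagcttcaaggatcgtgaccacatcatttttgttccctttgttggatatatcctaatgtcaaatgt
Cd80: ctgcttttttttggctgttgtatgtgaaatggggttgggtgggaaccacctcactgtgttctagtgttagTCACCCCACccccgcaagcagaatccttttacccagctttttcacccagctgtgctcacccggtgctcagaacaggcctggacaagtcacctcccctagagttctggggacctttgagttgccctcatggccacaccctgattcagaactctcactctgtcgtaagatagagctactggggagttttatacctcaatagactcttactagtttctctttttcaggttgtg
The Pdcd1lg2 window held 1 match to the NF-kB consensus, at bases -244 to -235 from the start site, where both strands fit the consensus. Such a match is found in 8.46% of 32851 RefSeq promoter windows. The Cd80 window held the sterol regulatory element core TCACCCCAC at bases -180 to -172 from that RefSeq start, inside the GENCODE gene, found in 0.551% of windows. The interferon gamma activated site TTCNNNGAA (8.30% of windows), the interferon-stimulated response element GAAA-NN-GAAA (3.44%) and the ETS-IRF element GGAA-NN-GAAA (2.72%) were looked for on both strands and had no match in the 3 windows. The motifs were chosen with these sequences in view, and a match is a description of letters only.

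Cd86, the CD28 ligand that resting and activated dendritic cells both carry, was higher in every acLDL library than in every control. It stood at 134, 122, 123 and 172 normalized units with acLDL, against 88.9, 73.4, 88.8 and 97.6 in controls. The lowest acLDL library lay above the highest control, and the 4 values of each group lay close together, with coefficients of variation of 17.1% and 11.5%. The mean was 138 ± 23.6 with acLDL and 87.2 ± 10.1 in controls (SD, n = 4 each), a ratio of 1.58. The log2 fold change, on the scale of log2(value + 5), was 0.62 (SE 0.23, 95% interval 0.11 to 1.14), with limma's unadjusted p = 0.022 and adjusted p = 0.298 over all tested genes. It did not pass the threshold of 0.05. Among the tested genes 3.44% were higher in all acLDL libraries than in all controls and 2.2% were lower in all of them, while 7.42% were higher and 8.93% lower at an unadjusted p under 0.05. In bulk libraries, more cells that carry a message and more message per cell cannot be told apart.

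Cd80, the CD28 ligand that is induced on maturation, overlapped between the groups. It stood at 84.4, 25.96, 51.6 and 27.1 with acLDL, against 50.05, 11.1, 33.3 and 28.9 in controls. Libraries 1 and 3 of the acLDL group lay above every control, and acLDL libraries 2 and 4 lay within the range of the controls. The log2 fold change was 0.53 (SE 0.51, 95% interval -0.62 to 1.68, limma's adjusted p = 0.526). The interval is wide enough to hold the value of Cd86 and also a decrease.

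Cd40, the receptor for CD40 ligand, had the smallest relative spread of the tested members with acLDL. It stood at 39.1, 41.6, 36.8 and 37.3 with acLDL, against 31.4, 26.98, 43.5 and 26.7 in controls. Control library 3 was the highest of all 8, and the other controls lay below every acLDL library. The mean was 38.7 ± 2.13 with acLDL and 32.1 ± 7.84 in controls (SD, n = 4 each), with a log2 fold change of 0.26 (SE 0.30, 95% interval -0.42 to 0.93, limma's adjusted p = 0.609).

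**Figure D1:**
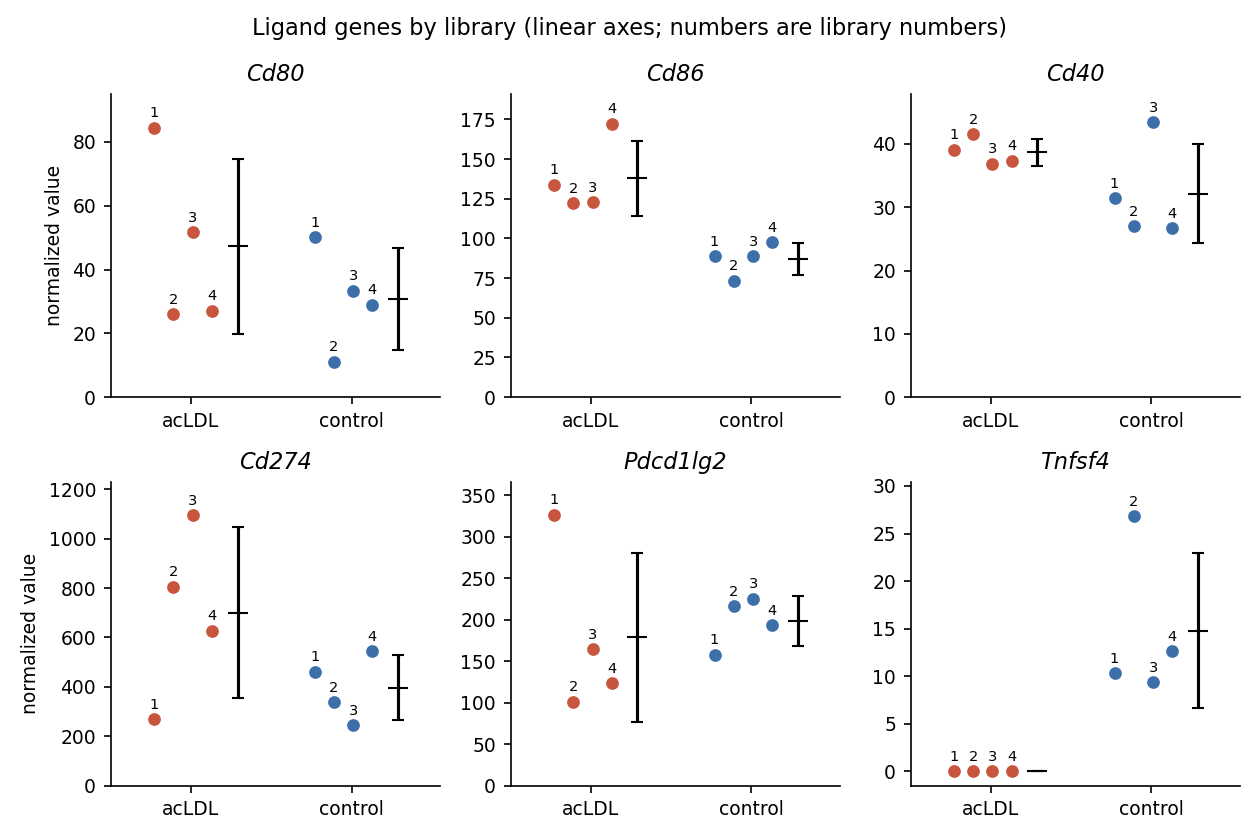
Normalized value of each ligand gene in the 4 acLDL libraries, left, and the 4 control libraries, right; points are libraries with their numbers, and the bar gives the mean with the SD. Cd86 does not overlap between groups, acLDL library 1 is the lowest of the acLDL libraries in Cd274 and the highest in Pdcd1lg2, and Tnfsf4 is listed at 0 in the 4 acLDL libraries.

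Cd274, which encodes PD-L1, had its 3 highest values in acLDL libraries and 1 of its 2 lowest in the remaining one. It stood at 269, 806, 1096 and 628 with acLDL, against 461, 337, 244 and 545 in controls. Thus acLDL libraries 2, 3 and 4 lay above every control, while acLDL library 1 was lower than 3 of the 4 controls. The mean was 699.7 ± 346 with acLDL and 397 ± 133 in controls (SD, n = 4 each). The log2 fold change was 0.71 (SE 0.44, 95% interval -0.28 to 1.69, limma's adjusted p = 0.355). Without acLDL library 1 it was 1.10 (SE 0.31) and passed the threshold (limma's adjusted p = 0.041), in a fit in which 7.28% of tested genes were called higher and 14.4% lower. With the short-transcript index as a covariate it was -0.10 (SE 0.28, adjusted p = 0.998), and without acLDL libraries 2 and 3 it was 0.12.

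Pdcd1lg2, which encodes PD-L2, had nearly the reverse order of libraries. It stood at 326, 101, 165 and 123 with acLDL, against 158, 216, 225 and 193 in controls. Library 1 was the highest of the acLDL group and of all 8 libraries, and acLDL libraries 2 and 4 were below every control. The mean was 179 ± 102 with acLDL and 198 ± 29.9 in controls (SD, n = 4 each). The log2 fold change was -0.28 (SE 0.35, 95% interval -1.08 to 0.53, limma's adjusted p = 0.644). Without acLDL library 1 it was -0.61 (adjusted p = 0.109), and with the index as a covariate it turned to 0.16 (adjusted p = 0.998).

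Tnfsf4, which encodes OX40 ligand, was listed at 0 in the 4 acLDL libraries and above 0 in the 4 controls. The controls stood at 10.3, 26.8, 9.38 and 12.7 normalized units. Divided by the step of their library these are 10, 24, 9 and 14 estimated reads, whole numbers within 0.05 of a step. The table holds no value between 0 and 5, so a listed 0 may stand for as many as 3.82 to 6.97 such reads, and no fold change can be given. The difference of means was -14.8 units, with p = 0.029 by exact permutation, two-sided, over 70 assignments. It is the smallest p that 4 against 4 allow and is not adjusted over genes. Any gene whose groups do not overlap gets this p, so it adds nothing to the listed values. The plan gave a member below the filter no test, and this one was run outside it. With the filter on low values left out, limma's adjusted p was 0.323. Of all listed genes 9, or 0.0766%, were at 0 in the 4 acLDL libraries and above 0 in the 4 controls, and 11, or 0.0936%, had the opposite pattern. Groups that do not overlap, with lower values in acLDL, were found in 2.09% of listed genes. The 9 make up 0.501% of the 1798 genes whose mean was within 1.5 times that of Tnfsf4. Each value of this gene rests on at most 24 estimated reads. The share of all listed genes at 0 was 6.98%, 18.5%, 21.9% and 11.1% in acLDL libraries 1 to 4, against 5.63% to 12.0% in control libraries. Tested genes of 1000 to 1999 nt, the length class of Tnfsf4 (1842 nt), had a median log2 fold change of -0.66. The part of either in the zeros of Tnfsf4 was not tested.

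Of the 5 tested ligands, none passed the threshold over all genes in either direction, as for the whole table, where 0.0% of genes were called higher and 0.0% lower. By the mean log2 value 4 of the 5 were higher with acLDL, against 44.3% of all tested genes, and 1 was lower, against 55.7%. At an unadjusted p under 0.05 only Cd86 was left of the 5, against 16.4% of tested genes in either direction. The median log2 fold change over the 5 was 0.53, against -0.13 for all tested genes. Members share their libraries, so this count is no support for a change of the set.

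The level of one ligand relative to another depended on whether values were divided by transcript length, and a kit that reads the 3′ end does not give more signal to a longer message. Divided by the longest coding transcript, the acLDL means were 193 ± 95.5 units per kb for Cd274, 103 ± 58.9 for Pdcd1lg2, 54.3 ± 9.29 for Cd86, 14.9 ± 8.65 for Cd80, 12.97 ± 0.713 for Cd40 and 0 for Tnfsf4 (SD, n = 4). In controls the means were 110 ± 36.7 units per kb for Cd274, 115 ± 17.3 for Pdcd1lg2, 34.3 ± 3.96 for Cd86, 9.73 ± 5.04 for Cd80, 10.8 ± 2.63 for Cd40 and 8.03 ± 4.42 for Tnfsf4 (SD, n = 4). On the undivided scale Cd274 was above Pdcd1lg2 in every control library, so the near-equal values per kb of this pair in controls come with the division by 3622 and 1729 nt. On both scales the group means of Cd274 and Pdcd1lg2 lay above that of Cd86, and that of Cd86 above those of Cd80, Cd40 and Tnfsf4.

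**Figure D2:**
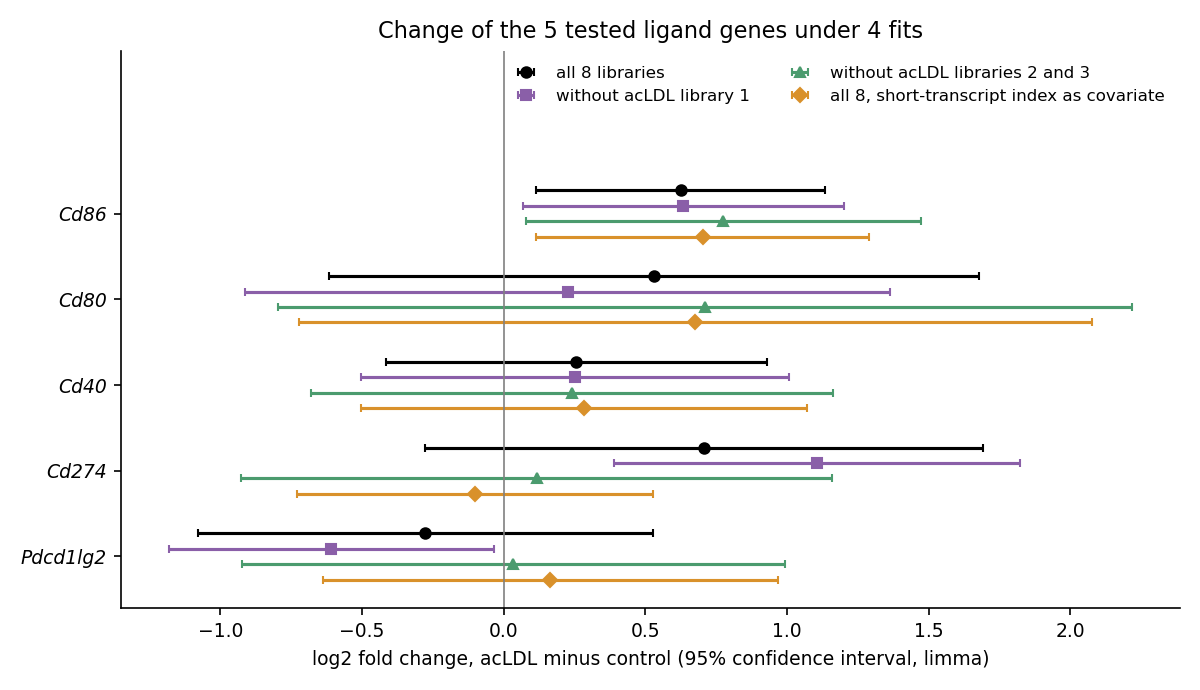
Log2 fold change (acLDL minus control, with limma's 95% confidence interval) of the 5 tested ligand genes in the fit of all libraries, without acLDL library 1, without acLDL libraries 2 and 3, and with the short-transcript index as a covariate. The 4 estimates of Cd86 lie between 0.62 and 0.77, those of Cd274 between -0.10 and 1.10, and those of Pdcd1lg2 between -0.61 and 0.16.

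Ratios within a library do not change when all its values are scaled by 1 factor, and 5 were computed as a description. Other kinds of normalization can change them, and so can the short-transcript index. With the index as a covariate the log2 fold change was -0.10 for Cd274 and 0.16 for Pdcd1lg2. The log2 ratio of Cd274 to Pdcd1lg2 was -0.28, 2.996, 2.74 and 2.35 in acLDL libraries 1 to 4, against 1.54, 0.64, 0.12 and 1.49 in control libraries 1 to 4. The 3 highest and the single lowest of the 8 were acLDL libraries. The log2 ratio of Pdcd1lg2 to Cd86 was 1.28, -0.27, 0.42 and -0.48 with acLDL, against 0.83, 1.56, 1.34 and 0.99 in controls, so 3 acLDL libraries lay below every control and library 1 lay among them. The log2 ratio of Cd274 to Cd86, the inhibitory to the activating message, averaged 2.19 ± 0.95 with acLDL and 2.13 ± 0.46 in controls (SD, n = 4 each), a difference smaller than either spread. The log2 ratio of Cd86 to Cd80 averaged 1.70 ± 0.91 with acLDL and 1.68 ± 0.79 in controls, and that of Cd86 to Cd40 1.82 ± 0.28 with acLDL and 1.46 ± 0.34 in controls.

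**Figure D3:**
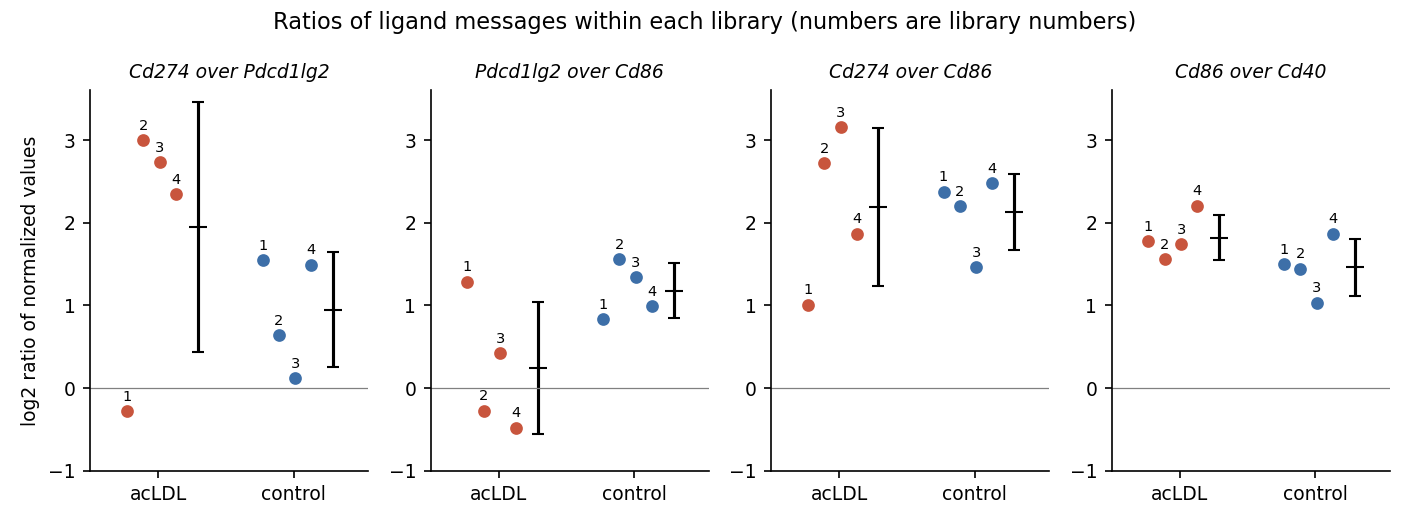
Log2 ratio of the normalized values of ligand genes within each library, for the 4 acLDL libraries, left, and the 4 control libraries, right, with the mean and SD. In Cd274 over Pdcd1lg2 and Pdcd1lg2 over Cd86, acLDL libraries 2, 3 and 4 lie outside the range of the controls and acLDL library 1 lies on the other side of them or among them.

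Both PD-1 ligands varied with the short-transcript index across libraries, and Cd86 did so less; these orders are a description of 8 libraries with no test. Taken from the lowest to the highest index (acLDL libraries 3, 2 and 4, control libraries 1, 4, 2 and 3, then acLDL library 1), Cd274 read 1096, 806, 628, 461, 545, 337, 244 and 269. Pdcd1lg2 read 165, 101, 123, 158, 193, 216, 225 and 326 in the same order. Both series ran mostly in 1 direction across the libraries of both groups. Within the range of index that controls covered, 0.10 to 0.84, there was no acLDL library. Cd86 read 123, 122, 172, 88.9, 97.6, 73.4, 88.8 and 134, and acLDL library 1 and control library 3, with an index of 0.89 and 0.84, stood at 134 and 88.8. With the index as a covariate Cd86 had a log2 fold change of 0.70 (SE 0.26, unadjusted p = 0.024, adjusted p = 0.933), Cd80 of 0.68 and Cd40 of 0.28.

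**Figure D4:**
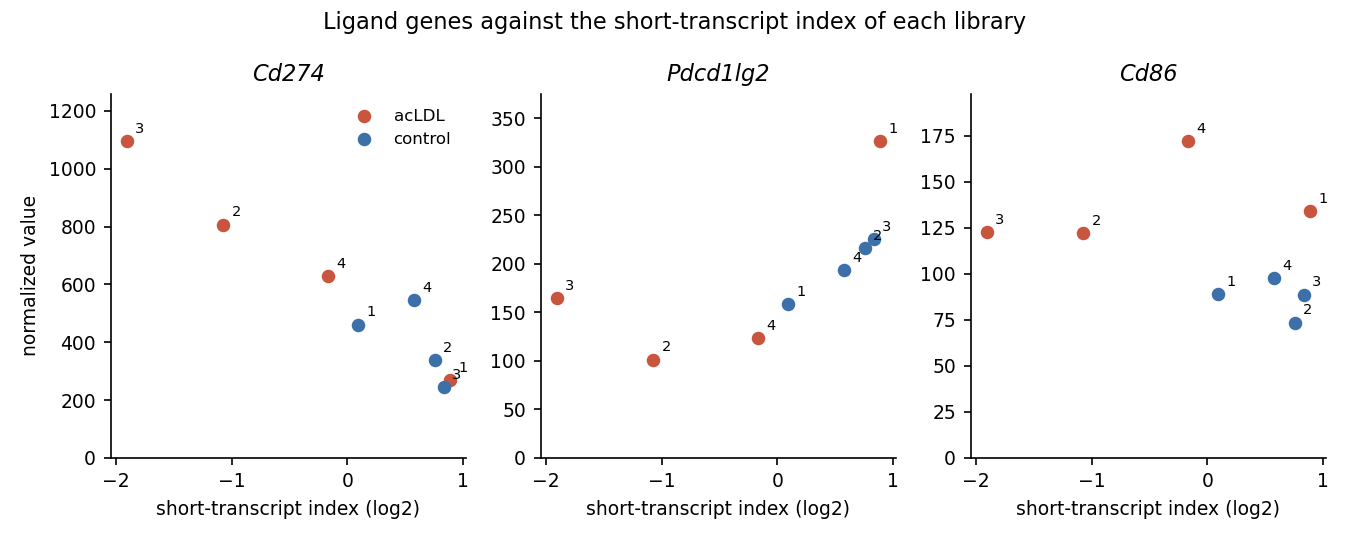
Normalized value of Cd274, Pdcd1lg2 and Cd86 (linear axes from 0) against the short-transcript index of each library (log2), with acLDL and control libraries in different colours and numbered. Cd274 declines and Pdcd1lg2 climbs along the index, apart from acLDL library 3 for Pdcd1lg2, and in Cd86 the 4 acLDL libraries lie above the 4 controls.

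The fold changes of all tested genes varied with transcript length. Their median was -1.501 for genes with a longest coding transcript under 1000 nt, -0.66 for 1000 to 1999 nt, -0.17 for 2000 to 2999 nt, -0.05 for 3000 to 3999 nt and 0.02 for 4000 nt or more. Set beside its length class, Pdcd1lg2 (1729 nt, -0.28) lay above the class median, and Cd274 (3622 nt, 0.71) and Cd80 (3173 nt, 0.53) lay above the upper quartile of their class, which was 0.41. Cd86 (2539 nt, 0.62) also lay above its upper quartile of 0.36, and Cd40 (2986 nt, 0.26) below it. Whether the acLDL exposure or the handling of the libraries set the index cannot be told apart.

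Genes within 200 kb of the PD-1 ligand pair, named for their position and outside the rule for named genes, differed among themselves. Plgrkt, a plasminogen receptor gene whose start lies 65 bases from that of Cd274 in GENCODE, on the other strand, was listed at 536, 0, 0 and 117 with acLDL and at 66.8, 709.7, 502 and 512 in controls. The log2 fold change of Plgrkt was -3.25 (SE 1.54, limma's adjusted p = 0.299) and -0.07 with the index as a covariate, and its longest coding transcript has 1020 nt. Plgrkt was thus at 0 in the 2 libraries where Cd274 was highest. Jak2, a kinase of interferon receptors upstream on the same strand, averaged 1036 ± 210.3 with acLDL and 1088 ± 193 in control libraries (log2 fold change -0.07, SE 0.21, adjusted p = 0.849). Ric1, downstream of Pdcd1lg2, was listed at 537, 546, 559 and 549 with acLDL and at 422, 384, 412 and 449 in controls. The groups of Ric1 did not overlap (log2 fold change 0.39, SE 0.15, adjusted p = 0.298), as for 3.44% of tested genes in this direction. Its value with the covariate was 0.37. Ermp1 had a log2 fold change of 0.58 and Insl6 of -1.93, neither past the threshold.

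The genes whose values ran most like a member's over the 8 libraries are given as a description, by Pearson's r of log2 values among 6015 or 6016 genes with a mean of at least 50. For Cd86 they were Ube2a (0.97), a ubiquitin-conjugating enzyme gene, Prg4 (0.96), which encodes lubricin, and Itfg2 (0.93), and 13 genes exceeded 0.9. Prg4 stood at 995, 1129, 1121 and 1320.4 with acLDL and at 739, 609, 698 and 741 in controls, without overlap. It was picked for its likeness to Cd86, whose groups do not overlap, so this is no separate result. Of all tested genes 3.44% were higher with acLDL without overlap. For Cd274 they were C2cd2l (0.98), Gm6209 (0.98) and Anapc11 (0.97), and 154 genes exceeded 0.9, which shows how many genes shared its order of libraries. For Pdcd1lg2 they were Ak3 (0.98), Cnpy3 (0.96) and Hipk1 (0.95). For Cd40 they were Dlat (0.94), Sec16a (0.92) and Limk2 (0.92), and for Cd80 Atp6v0a1 (0.88), Tnip1 (0.85) and Stambp (0.84), where no gene exceeded 0.9.

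Other costimulatory and coinhibitory proteins of antigen-presenting cells had values in both directions, and no test compared them with the ligands. Of 27 listed by name 18 were in the table and 15 were tested, of which the mean was higher with acLDL for 5 and lower for 10, against 55.7% of all tested genes lower, with a median log2 fold change of -0.51, and none passed limma's threshold. Slamf1, a homophilic receptor of the SLAM family, averaged 96.3 ± 41.0 with acLDL and 44.9 ± 14.9 in control libraries (log2 fold change 0.98, SE 0.38, adjusted p = 0.298). Nectin2, a ligand of the inhibitory receptor TIGIT and of DNAM-1, averaged 15.1 ± 16.2 with acLDL and 40.5 ± 7.28 in controls (-1.57, SE 0.63, adjusted p = 0.298). Cd48, a ligand of 2B4, was listed at 496, 17.2, 0 and 128 with acLDL and at 116, 618, 556 and 373 in controls (-2.77, SE 1.29, adjusted p = 0.299). With the index as a covariate these became 0.42, -0.47 and 0.03, and the median of the 15 became 0.03.

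Genes of CD40 signalling and NF-kB, the pathway that induces several of the ligands, went in both directions, as all tested genes did. All 20 were tested, and the mean was higher for 8 and lower for 12, against 55.7% of all tested genes lower. Their median was -0.32, against -0.13 for all tested genes, and none of the 20 passed limma's threshold. Nfkb2, the precursor of the p52 subunit, was listed at 1135, 1877, 2808 and 1978 with acLDL and at 1144, 869, 1102 and 933 in controls. The fold change on the log2 scale was 0.88 (SE 0.27, adjusted p = 0.298). Traf2, an adaptor of CD40, averaged 384 ± 188 with acLDL and 138 ± 53.7 in controls (1.38, SE 0.42, adjusted p = 0.298). Birc2, a ubiquitin ligase that restrains the alternative NF-kB pathway, averaged 16.2 ± 12.8 with acLDL and 35.9 ± 6.94 in controls (-1.09, SE 0.45, adjusted p = 0.298). Relb, the partner of p52, was chosen after its values were seen and was listed at 311, 11.5, 77.7 and 126 with acLDL and at 276, 338, 261 and 207 in controls (-1.65, adjusted p = 0.298, and -0.61 with the covariate). With the covariate Nfkb2 was at 0.42, Traf2 at 0.67 and Birc2 at -0.55.

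Regulators of the ligands likewise went in both directions. Of 23 named 21 were tested, the mean being higher for 9 and lower for 12, against 55.7% of all tested genes lower. The median of the 21 was -0.30, and none passed limma's threshold. Il4ra, a subunit of the receptor of interleukin 4, a cytokine that induces PD-L2 in mouse macrophages, averaged 925 ± 329 with acLDL and 467 ± 123 in controls (0.94, SE 0.30, adjusted p = 0.298). Csf2ra, a chain of the GM-CSF receptor, averaged 6679 ± 1642 with acLDL and 4275 ± 751 in controls (0.63, SE 0.23, adjusted p = 0.298). Ptpn2, a phosphatase that dampens interferon signalling, averaged 39.6 ± 42.0 with acLDL and 107 ± 44.2 in controls (-1.59, SE 0.61, adjusted p = 0.298). Marchf1, the ubiquitin ligase that removes CD86 and MHC class II from the surface, was chosen after its values were seen and averaged 1125 ± 302 with acLDL and 766.5 ± 124 in controls (0.53, SE 0.24, adjusted p = 0.298). Cd83, whose product opposes that ligase, was likewise chosen after its values were seen and averaged 122 ± 128 with acLDL and 229 ± 122 in controls (-1.29, SE 0.80, adjusted p = 0.358). Cmtm6, whose human product keeps PD-L1 at the surface, was chosen in the same way and was listed at 233, 0, 31.4 and 9.26 with acLDL and at 0, 323, 279 and 238 in controls (-1.88, adjusted p = 0.468). With the short-transcript index as a covariate Marchf1 was at 0.16, Cd83 turned to 0.35 and Cmtm6 was at -0.02. Il4ra was then at 0.43, Csf2ra at 0.51 and Ptpn2 at -0.73, and the median of the 21 was -0.06.

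Of 28 maturation and migration genes of dendritic cells, with which CD86 and CD40 are commonly read, 23 were tested. The mean was higher for 6 and lower for 17, against 55.7% of all tested genes lower, and none of the 23 passed limma's threshold. The median of the 23 was -1.24, and 0.01 with the index as a covariate. Socs2 (0.72), Ccl22 (0.42) and Tmem123 (-0.81) had the smallest p, each with limma's adjusted p = 0.298. Tmem123 averaged 1638 ± 601 with acLDL and 2821 ± 735 in controls. Ccr7, the homing receptor of mature dendritic cells, was chosen after its values were seen and was listed at 719.7, 9.17, 12.2 and 77.5 with acLDL and at 96.9, 624, 569 and 434 in controls. The log2 fold change of Ccr7 was -2.53 (SE 1.21, limma's adjusted p = 0.299), and -0.08 with the index as a covariate. The part of the index in these values was not tested.

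**Figure D5:**
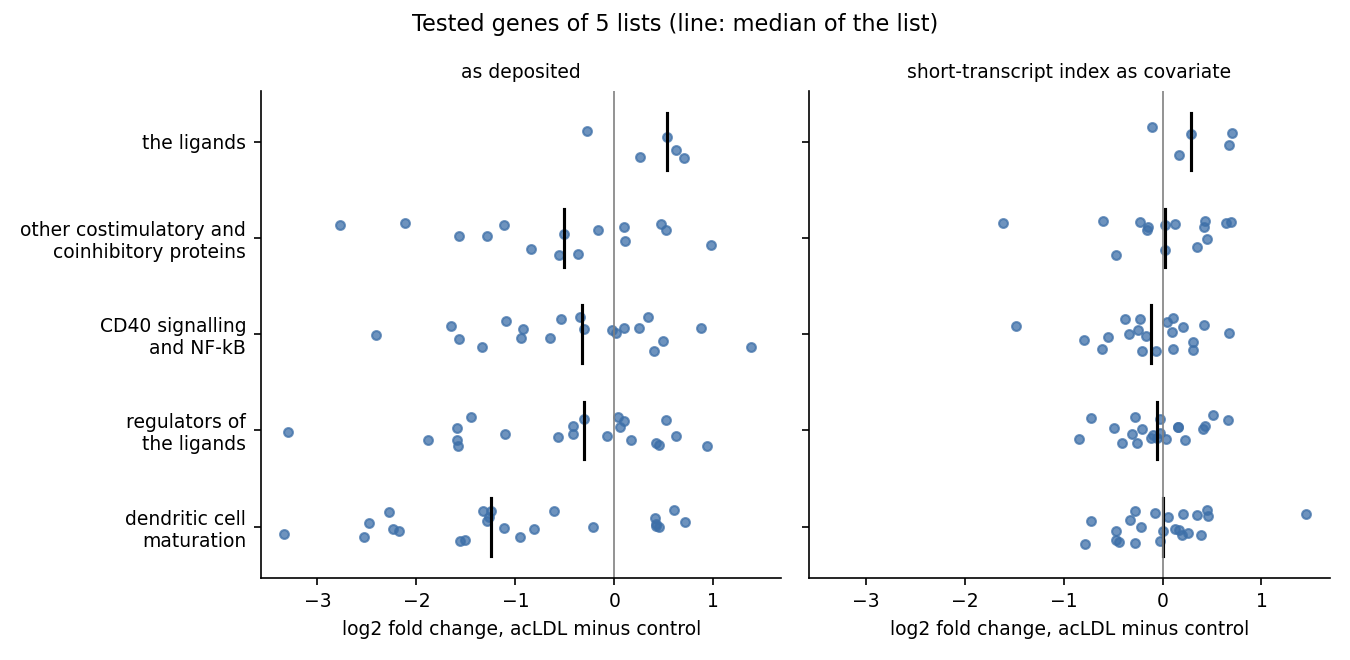
Log2 fold change (acLDL minus control) of the tested genes of 5 lists, in the fit of the deposited values, left, and with the short-transcript index as a covariate, right; points are genes and the line is the median of the list. The medians of the 4 lists beside the ligands lie between -1.24 and -0.30 on the left and between -0.12 and 0.03 on the right. The median of the ligands is 0.53 on the left and 0.28 on the right. For all tested genes, which are not drawn, it is -0.13 and 0.007. The index is computed from the tested genes themselves, so a move of a median towards 0 is not particular to these lists.

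Of the T cell receptors for these ligands, 3 of 6 were in the table and were tested. Icos averaged 45.9 ± 13.1 with acLDL and 24.2 ± 18.5 in controls, Cd28 averaged 13.6 ± 5.26 with acLDL and 29.3 ± 9.23 in controls, and Tnfrsf4 (OX40) 7.20 ± 10.5 with acLDL and 13.02 ± 8.70 in controls. None passed limma's threshold (adjusted p from 0.298 to 0.578). Of 7 T cell markers 1 was in the table, Cd8a, which some dendritic cells also express, at 18.3 to 57.1 with acLDL and 0 to 16.8 in controls. The Cd3 chains are not among the genes used here.

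Markers of cell types varied between libraries as well. The summed level of 8 dendritic cell markers was 33712 to 45668 with acLDL against 28474 to 31354 in controls, and most of it was H2-Eb1, a chain of MHC class II, at 34549.8 ± 9348 with acLDL and 22132 ± 3387 in controls (SD, n = 4 each). Of the 7 tested dendritic markers 3 had a higher and 4 a lower mean, at a median log2 fold change of -0.61. H2-Aa, another MHC class II chain, averaged 1998.5 ± 2927 with acLDL and 4656 ± 2216 in controls, so the sum does not stand for the list. For 11 macrophage markers the sum was 13886 to 18679 with acLDL against 13624 to 16391 in controls. Of these 3 had a higher and 8 a lower mean, against 55.7% of all tested genes lower. Their median log2 fold change was -1.20, and -0.06 with the short-transcript index as a covariate. For 6 monocyte markers, 3 with a higher and 3 with a lower mean, the sum was 6739.5 to 10656 with acLDL against 6836 to 7776 in controls. For 9 of 11 granulocyte markers it was 8402 to 18098 with acLDL against 11399 to 20294 in controls. Of these 9, 2 had a higher and 7 a lower mean, at a median of -1.45, and -0.05 with the covariate. These sums do not stand for their lists either. The 3 B cell markers in the table summed to 29.4 to 91.1 with acLDL and 48.3 to 109.8 in controls, the 3 mast cell and basophil markers to 12.2 to 57.8 with acLDL and 42.3 to 102 in controls, and the globin gene Hbb-bs stood at 54.1 to 189.7 with acLDL and 164 to 1429 in controls. Zbtb46, which marks conventional dendritic cells and was chosen after its values were seen, was listed at 24.6, 5.73, 0 and 0 with acLDL and at 7.05, 10.8, 20.8 and 7.28 in controls. Zbtb46 did not pass the filter on low values and was not tested. The part of these cell types in the ligand values was not tested.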

How the data were processed

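RNA of 8 libraries was measured with the QuantSeq 3′ kit, per the labels' protocols (the design text speaks of the 5′ end). The tools named, per the submitters' processing notes, are bcl2fastq 2.20 and kallisto, with mm10. What the submitters used as annotation and for normalization is not given in the sources used here. Values as deposited by the authors are a normalized signal per gene, not whole, with no value between 0 and 5. From 11.1% to 13.6% of the low values per library fell on whole steps (tolerance 0.01), so reads were not recovered and no count model was used. Intervals from counts were not computed.

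Genes of at least 10 in at least 4 libraries were tested with limma (trend, robust) on log2(value + 5), adjusted by Benjamini and Hochberg, threshold 0.05. Named genes are the members, the 3 smallest p of each of 13 further lists, Itgax and the 3 genes most like each member. Neighbouring genes, and the genes said to be chosen after their values were seen, fall outside this rule. Members, lists and tests were chosen with earlier results of these data known. Alternatives were pseudocounts 1 and 20, filters, scalings, a replicate block, array weights, the short-transcript index and libraries left out. The fit was tested on simulated data. Lengths came from GENCODE release 21 (89.1% of tested genes) and promoters from RefSeq, for 4 of 7 members. kallisto shares reads between similar transcripts. R 4.3.3, limma 3.58.1, Python 3.11.15 and scipy 1.17.1 were used.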

Additional observations from a re-analysis of the deposited data

Results flagged for a closer look

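The 40 genes looked at were the listed members, the 3 smallest p of each list and Itgax. Genes named only for their likeness to a member were left out. Of 79 groups of 4 libraries over the 40 genes, 6 had 1 library far from the other 3, where chance gives about 1 in 20, and none was a ligand gene. In 5 of them acLDL library 1 was far above the rest of its group: Birc2 at 35.2 (next 12.1), Fn1 at 406 (next 52.4), Ighm at 53.9 (next 8.003), Ngp at 674 (next 113) and Ptpn2 at 102 (next 25.3). Tnfrsf4 was listed at 0 in control library 4, with the other controls from 16.7 to 17.9.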

How the results depend on the processing

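Cd80 and Cd40 kept their direction and stayed short of the threshold in all 20 alternatives, from 0.18 to 0.97 and from 0.14 to 0.64. Cd86 kept its direction in all 20 (0.52 to 0.86, adjusted p from 0.043 to 0.994) and passed with array weights alone (0.73, adjusted p = 0.043). Cd274 passed without acLDL library 1 and without library 1 of both groups (1.20, adjusted p = 0.035), turned to -0.10 with the short-transcript index, and ran from 0.44 to 1.10 with each library left out. Pdcd1lg2 turned to 0.16 with the index and to 0.034 without acLDL libraries 2 and 3. Left-out ranges were 0.52 to 0.68 for Cd86, 0.19 to 0.78 for Cd80, 0.19 to 0.39 for Cd40 and -0.61 to -0.06 for Pdcd1lg2. The Tnfsf4 difference of means ran from -16.6 to -10.8 in 10 alternatives. The genes called were 655 higher and 1302 lower with array weights and 1011 higher and 2109 lower without library 1 of both groups; each library left out gave 0 to 735 higher and 0 to 1455 lower, and quantile normalization 1 lower. The cause was not tested. Same-numbered libraries did not deviate together (correlations -0.55, -0.21, -0.28 and 0.03), and a replicate block called no gene and changed no call (Cd86 0.62, adjusted p = 0.483; Cd274 0.71, Pdcd1lg2 -0.28, Cd80 0.53, Cd40 0.26). TMM was computed unweighted. Icosl and the fits of Tnfsf4 with covariates gave no value. Values of 5 to 30 units rest on few reads.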

Other observations

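Checkpoint proteins outside the 7 genes also differed among themselves, and the 4 given here were chosen after their values were seen. Vsir, which encodes VISTA, was listed at 173, 418, 476 and 259 with acLDL and at 282, 178, 216 and 218 in control libraries (log2 fold change 0.47, SE 0.33, and an adjusted p of 0.406 by limma), an order of libraries close to that of Cd274, and its value with the short-transcript index as a covariate was -0.15. Lgals9, which encodes galectin-9, was listed at 214, 13.3, 0 and 26.6 with acLDL and at 50.2, 183, 165 and 122 in controls (-2.12, SE 1.01, adjusted p = 0.300, and 0.03 with the covariate), an order close to that of Pdcd1lg2. Alcam, the ligand of CD6, averaged 440.2 ± 165 with acLDL and 402 ± 127 in controls (0.11, SE 0.32, adjusted p = 0.855). Btla, listed below the filter, stood at 10.3, 7.65, 15.0 and 7.74 with acLDL and at 0, 5.52, 0 and 8.53 in controls.

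Near Tnfsf4, and named for its position, the antioxidant enzyme gene Prdx6 averaged 1329.7 ± 378 with acLDL and 822 ± 218 in controls (0.68, SE 0.27, limma's adjusted p = 0.298, and 0.22 with the covariate).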
